A study of Homo sapiens with 4 samples.

Results

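To describe m6A on the mRNAs of the translation machinery in adenocarcinoma of the esophagogastric junction, the peaks on genes of translation initiation and elongation factors were examined in OE-19 cells, an established line of this cancer. The members were all protein-coding genes of the human GENCODE annotation whose symbol starts with EIF or EEF, 72 of 20046 genes. They were classed by symbol into 52 initiation factor genes, 16 elongation factor genes with their modifying enzymes, and the 4 kinases that phosphorylate eIF2. The initiation class therefore also holds EIF4A3, EIF1AD, EIF6, the EIF5A genes and genes that inhibit or bind eIF4E. The elongation class also holds readthrough loci. The series held 4 samples of OE-19 cells, all grown in the same medium without a further treatment in the labels, 2 of RNA pulled down with an m6A antibody (IP) and 2 of input RNA. Only the IP samples had a peak list here, with 24607 peaks in replicate 1 and 19318 in replicate 2, so no value stands for a condition and nothing below was tested. The study calls the replicates biological, and the sources used here do not say whether they came from separate cultures. The lists hold no read numbers, so the depth behind a peak is unknown, and the expression of the members was not measured in them.

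Translation initiation brings the initiator tRNA, carried by the GTPase eIF2, and the small ribosomal subunit to the capped end of an mRNA, which the eIF4 complex recognises and unwinds. The eIF3 complex holds these parts together, eIF1, eIF1A and eIF5 act in start codon selection, and eIF5B joins the large subunit. In elongation, eEF1A delivers aminoacyl-tRNAs and eEF2 moves the ribosome along. Stress kinases phosphorylate eIF2 and thereby lower initiation, while EEF2K phosphorylates eEF2 and slows elongation. N6-methyladenosine (m6A) is written on mRNA mainly by the METTL3-METTL14 complex, in a sequence context with GGAC at its core, and is known to gather in long internal exons and near stop codons.

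The sequences below show where that core lies in the strongest reproduced peaks of the members, 1 per gene, for the 10 members of highest fold enrichment whose summits lay in exons of no other gene (EEF1D is described below without its sequence). Each is 30 bases of hg38 on the strand of the gene, 5′ to 3′, around the GGAC nearest to the summits, with that GGAC in capitals. The EIF3A stretch holds a further GGAC upstream, left in lower case.

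EEF1AKMT1: atgattctgggctGGACtgtgggatctgat (chr13:20729079-20729108, minus strand, 11 nt before the stop codon)
EIF1AD: gcctgagactccaGGACccaattctccact (chr11:65998575-65998604, minus strand, 12 nt past the start of the stop codon)
EEFSEC: aggagcctatactGGACtctttcaacttct (chr3:128341525-128341554, plus strand, coding sequence, exon 5)
EIF5B: gcaatctagaaaaGGACagaaaaaaaatca (chr2:99361483-99361512, plus strand, coding sequence, exon 4)
EEF1AKMT3: agaaaggagcatgGGACagagagcttcttt (chr12:57780512-57780541, plus strand, 117 nt before the stop codon)
EIF3A: tgatgaggacagaGGACcaagacgtgggat (chr10:119042395-119042424, minus strand, coding sequence, exon 19)
EIF2B1: caacagctggtcaGGACgttacacgcggtg (chr12:123621328-123621357, minus strand, 3′ UTR, 416 nt past the start of the stop codon)
EIF4G3: gagtcctagaggaGGACgagagcataagaa (chr1:20941608-20941637, minus strand, coding sequence, exon 10)
EEF2K: aacgcaaaacccaGGACattccagcccaac (chr16:22287360-22287389, plus strand, 3′ UTR, 3381 nt past the start of the stop codon)
EIF4ENIF1: ctcaactaagcccGGACctgtggtggcaca (chr22:31439836-31439865, minus strand, 32 nt past the start of the stop codon)

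The central adenine of the motif shown lay 14 and 22 bp from the summits of replicates 1 and 2 in EEF1AKMT1. In the same order it lay 10 and 31 bp away in EEFSEC, 12 and 17 bp in EIF5B and 23 and 5 bp in EIF1AD. EIF2B1 had 43 and 25 bp, and EIF4ENIF1 had 25 and 78 bp. The motif of EEF1AKMT3 (8 and 225 bp) and that of EEF2K (14 and 201 bp) were close to the replicate 1 summit alone. EIF3A had 58 and 67 bp, and EIF4G3 had 185 and 196 bp. The set holds both kinds of place that recur below, the stop codon (EEF1AKMT1, EIF1AD, EEF1AKMT3 and EIF4ENIF1) and long coding exons (EEFSEC, EIF5B, EIF3A and EIF4G3). A motif near a summit describes the sequence and is not a methylated base, since the lists do not resolve single adenines.

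A peak whose summit lay in an exon was found in both replicates for 25 of the 72 members, or 34.7% (95% Wilson interval 24.8% to 46.2%, which covers counting error only). The same holds for 33.4% of all protein-coding genes. Weighting all genes to the exonic lengths of the members, in 20 length bins, gave 35.5%. As a whole, the factors therefore carried peaks about as often as other genes of their length. In replicate 1, 33 members had a peak (42.4% of all protein-coding genes did), and in replicate 2, 25 did (34.1% of all). All 25 of replicate 2 were among the 33 of replicate 1, so 8 members were seen in replicate 1 alone, 0 in replicate 2 alone, and 39 in neither.

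The roles differed in how many genes carried a peak. Initiation factors had a peak in both replicates in 14 of 52 genes (26.9%, interval 16.8% to 40.3%), where genes of their length had one in 37.0%. Elongation factors and their enzymes had one in 8 of 16 (50%, interval 28.0% to 72.0%), where genes of their length had one in 27.4%. The eIF2 kinases had one in 3 of 4 (75%, interval 30.1% to 95.4%), beside 49.4% at their length. The point estimate thus lay below genes of the same length for initiation factors and above for both other groups. The length-weighted share lay inside the interval for initiation factors and for the kinases. For the elongation group it lay just below the interval, at 27.4% against a lower limit of 28.0%. The intervals of the groups overlap and the groups are small. In replicate 1 taken alone, 21 of the 52 initiation factors had a peak (40.4%), beside 42.4% of all protein-coding genes. In replicate 2, 26.9% had one, beside 34.1%. These shares of all genes per replicate were not weighted by length. When the 3 EIF5A genes, whose product also acts in elongation, were moved, the counts became 14 of 49 and 8 of 19. When length was taken from a gene's longest-CDS transcript (that with the longest coding sequence) in place of all its exons, the weighted share for initiation factors was 32.2% and that for elongation factors 28.1%.

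**Figure D1:**
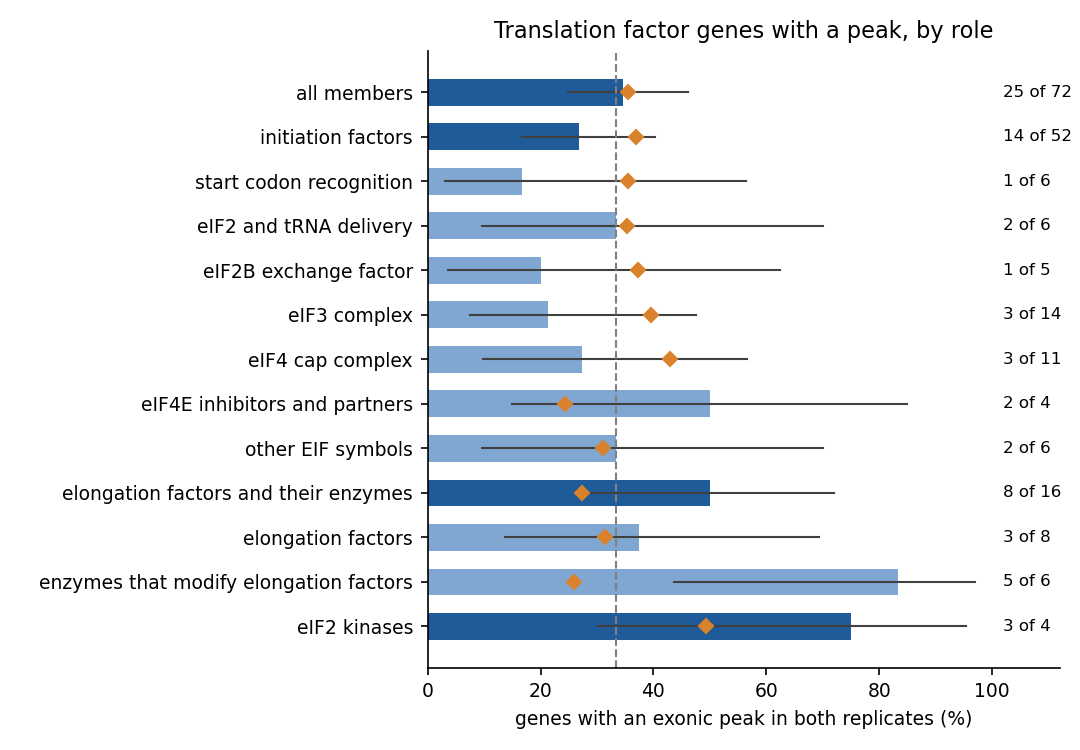
The plot gives the percentage of genes with an exonic peak in both replicates for all members and for each role. Bars show the share with 95% Wilson intervals (dark bars are the main groups, light bars their subgroups), diamonds the share of protein-coding genes weighted to the same exonic lengths, and the dashed line all protein-coding genes at 33.4%. The enzymes that modify elongation factors stand highest, at 5 of 6, and the start codon recognition factors lowest among the groups drawn, at 1 of 6.

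The elongation machinery was split between the factors and the enzymes that modify them. Among the enzymes, 5 of 6 had a peak in both replicates (83.3%, interval 43.6% to 97.0%, beside 25.9% at their length) and the sixth, EEF1AKMT2, had one in replicate 1 alone. Of these 5, EEF1AKMT3 and EEF2K had weak support in replicate 2, with −log10 q of 2.07 and 4.90. Both miss the stricter limit of q of 1e-05 that is used further below. The peak of EEF2KMT lies in an exon of ALG1 as well, so the high share rests partly on uncertain peaks. The factors themselves had a peak in both replicates in 3 of 8 (37.5%, beside 31.4%). EEF1A1 and EEF1A2, which encode the paralogues of eEF1A, and EEF1B2, EEF1G and EEF1E1 had no exonic peak in either list. Both readthrough loci that join an EEF gene with its neighbour, EEF1AKMT4-ECE2 and EEF1E1-BLOC1S5, had none either.

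EEF1AKMT1, a lysine methyltransferase of eEF1A, had a single peak in each replicate, and its fold enrichment, the ratio of the signal at the summit to the background of the peak caller, was 10.1 and 7.79. Values are given in this order, replicate 1 before replicate 2. Both summits lay within 25 nt of the stop codon, at positions −25 and 11 counted from its start. EEF1AKMT3, another methyltransferase of eEF1A, had 11.6 in replicate 1 but 2.96 in replicate 2, the most unequal pair among the members. Its summits lay 217 bp apart on either side of the stop codon, within peaks that overlapped by 474 bp. EEF1AKMT4 had 3.51 and 2.85, with summits 72 and 18 nt before the stop codon. EEF1AKMT2 had 6.97 in replicate 1, 57 nt past the start of the stop codon, in an exon that overlaps the locus ENSG00000258539. All 4 of these methyltransferase genes therefore had their exonic summits within 200 nt of the stop codon. The transcripts of EEF1AKMT1 (1054 nt) and EEF1AKMT4 (975 nt) are short, so such a window covers a large part of them.

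EEF2K, the kinase of eEF2, had 3 peaks in replicate 1 and 1 in replicate 2. The pair that overlapped lay far into its long 3′ UTR, 3367 and 3180 nt past the start of the stop codon, with 3.15 in replicate 1 and 4.49 in replicate 2 and summits 187 bp apart. A pair of peaks close to the stop codon, with 4.31 and 2.88, appeared in replicate 1 alone. EEF2KMT, the methyltransferase of eEF2, had 7.24 and 4.82 in its 3′ UTR, where the exon also overlaps ALG1, so that the gene of this peak is uncertain.

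Among the elongation factors, EEF1D, a subunit of the exchange complex that recharges eEF1A, had the highest value of all members. Its strongest peak reached 13.8 in replicate 1 and 9.38 in replicate 2, but the summit lies in an exon of TIGD5 as well and in 1 of the 54 annotated EEF1D transcripts. A second pair with no such overlap had 6.40 and 5.24 and lay in the 1470-nt exon 1 of the longest-CDS transcript, a position found in 6 of the 54 transcripts. EEFSEC, which delivers selenocysteine-tRNA, had 8.22 and 4.85 in its coding sequence, 21 bp apart. EEF2, which moves the ribosome along, had the weakest peak of the members, 1.49 and 1.43, and its summits lay 30 bp apart at the stop codon. Among all exonic peaks of protein-coding genes these values stood at percentiles 0.0379 and 0.0583.

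**Figure D2:**
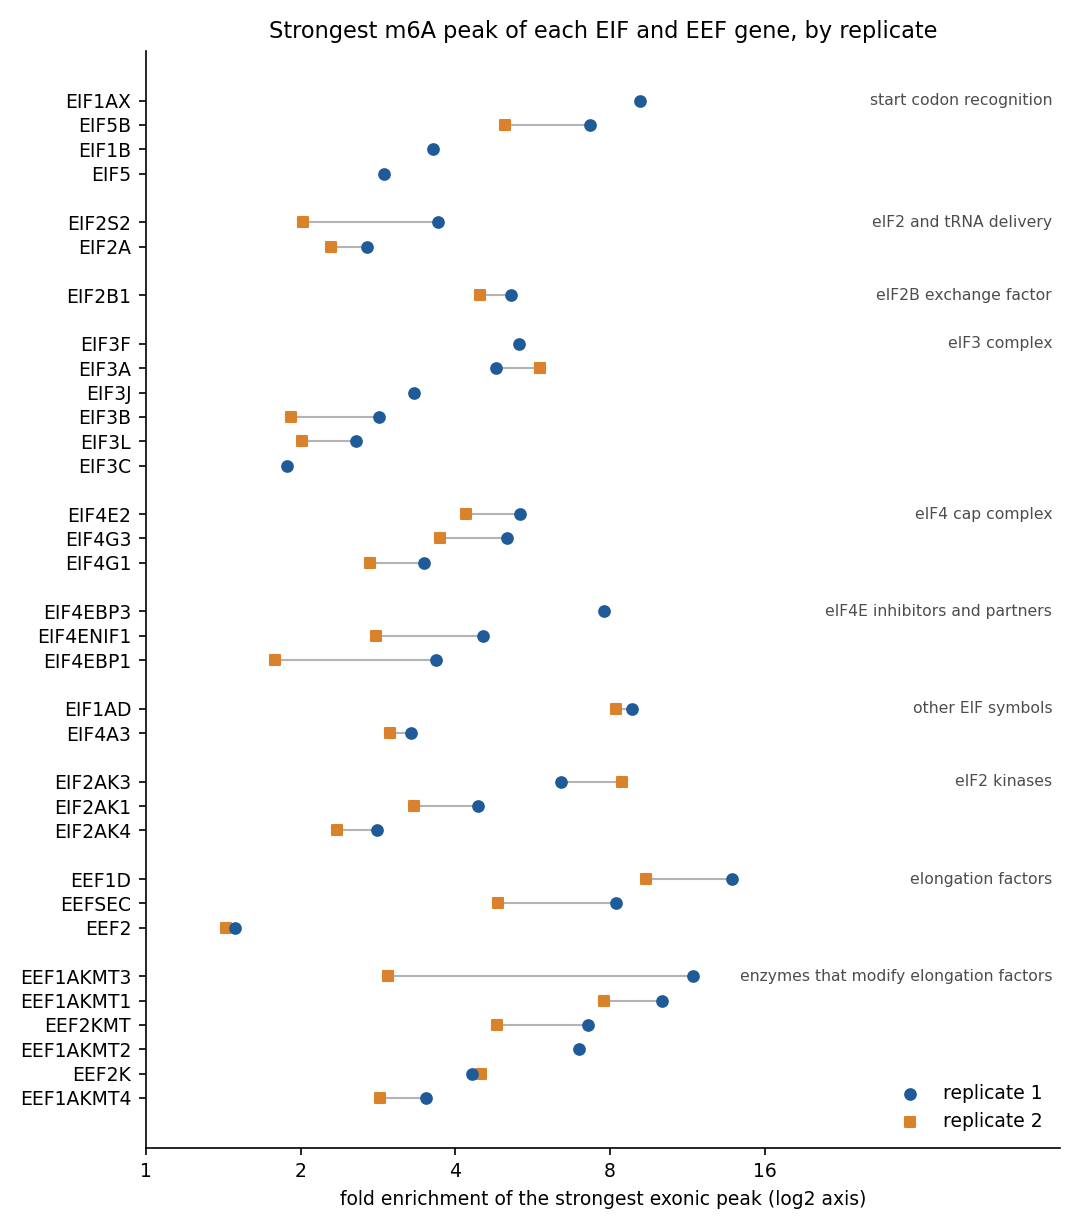
The plot gives the fold enrichment of the strongest exonic peak (log2 axis) of each of the 33 members with a peak, as circles for replicate 1 and squares for replicate 2 and grouped by role. Genes with a circle alone had no peak in replicate 2. In most pairs the square lies to the left, and EEF2 lies at the far left with 1.49 and 1.43.

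The kinases of eIF2 respond to different stresses. EIF2AK3, also called PERK and activated by stress of the endoplasmic reticulum, had 4 peaks in replicate 1 and 1 in replicate 2. The pair seen in both lay in its 781-nt exon 13, with 6.11 in replicate 1 and 8.46 in replicate 2, and the exon overlaps a further locus, ENSG00000225420. EIF2AK4 (GCN2, which senses a lack of amino acids) had a shared peak in exon 12, with 2.28 and 2.35, and a peak of 2.82 in exon 9 in replicate 1 alone. EIF2AK1 (HRI, which senses heme) had 4.43 and 3.32 in its 3′ UTR at the same summit in both lists, in an exon that overlaps AIMP2. EIF2AK2 (PKR, activated by double-stranded RNA) had no exonic peak. Across the kinases, 0 of 6 summits of replicate 1 and 0 of 3 of replicate 2 lay within 200 nt of the stop codon. This window covers 8.35% and 8.39% of the length of their transcripts. In all protein-coding genes it held 24.5% and 27.1% of the summits. So few summits do not set the kinases apart.

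Start codon recognition had a reproduced peak in 1 of 6 genes (16.7%, interval 3.01% to 56.4%), an interval that holds the 35.5% of genes of their length. EIF5B, the GTPase that joins the ribosomal subunits, had 5 peaks in replicate 1 and 3 in replicate 2. The pairs in exon 4 (7.32 and 5.0), exon 5 (6.39 and 3.97) and at the stop codon (3.12 and 2.29) were found in both. EIF1AX, which encodes the scanning factor eIF1A, had 9.15 in replicate 1 and no peak in replicate 2, the strongest member peak seen once. EIF1B (3.62) and EIF5 (2.91), the GTPase activator of eIF2, were also seen in replicate 1 alone, and EIF5 overlaps ENSG00000291313. EIF1 had no peak. The 3 summits seen once lay in the 5′ UTR.

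Of the eIF2 genes and the related delivery factors, 2 of 6 had a reproduced peak (33.3%), close to the 35.3% of genes of their length. EIF2S2, the β subunit of eIF2, had a shared pair of 2.38 and 2.02 at the stop codon and a stronger peak of 3.71 in its 5′ UTR in replicate 1 alone. EIF2A, a factor that binds initiator tRNA apart from eIF2, had 2.69 and 2.29, with summits 1 bp apart in the 572-nt exon 10. EIF2S1 and EIF2S3, the other subunits of eIF2, had no peak, nor had EIF2S3B and EIF2D. In eIF2B, the factor that recharges eIF2 with GTP, EIF2B1 alone of 5 subunits had a peak, with 5.13 and 4.47 in the 3′ UTR. That is 20% (interval 3.62% to 62.4%), beside 37.3% at their length.

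The eIF3 complex had a reproduced peak in 3 of 14 genes (21.4%, interval 7.57% to 47.6%). That interval holds the 39.5% of genes of the same length. In replicate 1 taken alone, 42.9% of the eIF3 genes had a peak, beside 42.4% of all protein-coding genes, unweighted by length. In replicate 2, 21.4% had one, beside 34.1%. EIF3A, the largest subunit of eIF3, had 5 peaks in each list, of which 4 pairs overlapped. The strongest was in the 779-nt exon 19, with 4.79 in replicate 1 and 5.85 in replicate 2, and the weakest of the shared ones had 1.69 and 1.68. EIF3B had 2.84 and 1.92 near the stop codon, and EIF3L had 2.56 and 2.01 in its 498-nt exon 11, which overlaps ENSG00000279738. EIF3F (5.31), EIF3J (3 peaks, the strongest at 3.33) and EIF3C (1.88) were seen in replicate 1 alone. EIF3C has a near-identical copy, EIF3CL, so reads may have been split between them. The 8 genes without a peak were EIF3CL, EIF3D, EIF3E, EIF3G, EIF3H, EIF3I, EIF3K and EIF3M.

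In the eIF4 complex, the scaffold genes EIF4G1 and EIF4G3 carried reproduced peaks, while the cap-binding subunit EIF4E and the helicases EIF4A1 and EIF4A2 had none. EIF4G1 had 2 pairs, of 3.48 and 2.73 at the stop codon and of 2.33 and 2.21 in its 822-nt exon 9. EIF4G3 had 5.04 and 3.73 in its 840-nt exon 10. EIF4E2, which binds the cap without eIF4G, had 5.34 and 4.20 outside its longest-CDS transcript, in an exon that overlaps ENSG00000237126. Of the 11 genes of the complex, 3 had a reproduced peak (27.3%, interval 9.75% to 56.6%), beside 43.0% of genes of the same exonic length and 32.8% of those of the same transcript length. The 8 without a peak also included EIF4B and EIF4H, the cofactors of the helicases, and EIF4G2. Of the proteins that bind eIF4E in place of eIF4G, EIF4EBP1 had a shared pair of 2.70 and 1.78 and a peak of 3.67 in exon 1 in replicate 1. EIF4ENIF1, the transporter of eIF4E, had 4.53 and 2.80 at the stop codon. EIF4EBP3 had 7.80 in replicate 1 alone, in an exon it shares with the readthrough locus ANKHD1-EIF4EBP3, and EIF4EBP2 had none.

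Of the other EIF symbols, EIF4A3 and EIF1AD had peaks. EIF4A3, the helicase of the exon junction complex rather than of initiation, had 3.28 and 2.99 in the 5′ UTR. EIF1AD, named for an eIF1A-like domain, had 8.83 and 8.21 at the stop codon, the second highest shared pair free of other genes, and 8.11 in the 5′ UTR in replicate 1 alone. EIF6 and the EIF5A genes had no peak.

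Where members had peaks, these were weaker than the median peak of all genes. The median fold enrichment was 3.67 over 59 peaks in replicate 1 (quartiles 2.83 and 6.18), beside 5.21 over 18488 exonic peaks of all protein-coding genes, and 2.98 over 34 peaks in replicate 2 (quartiles 2.23 and 4.74), beside 4.72 over 12003. In replicate 1, 29 of the 59 peaks (49.2%) and in replicate 2, 19 of the 34 (55.9%) lay under the 25th percentile of all exonic peaks. At or above the 75th percentile lay 8 and 4. Initiation factors had medians of 3.62 and 2.73, the kinases 4.43 and 3.32, and elongation factors with their enzymes 5.28 and 4.65. The low values were therefore mainly those of initiation factors, and the elongation group lay near the median of all genes.

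**Figure D3:**
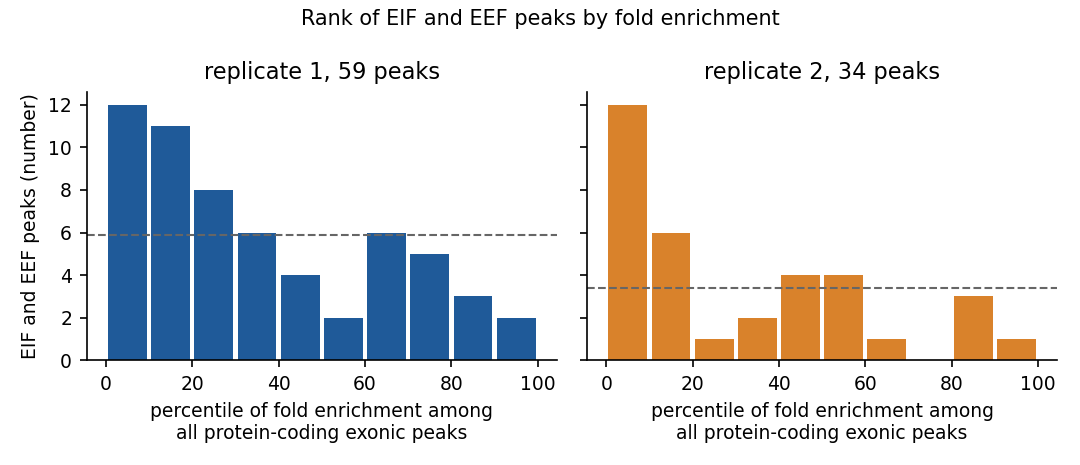
The histograms give the number of member peaks (vertical axis) by their percentile in fold enrichment among all exonic peaks of protein-coding genes (horizontal axis), for 59 peaks of replicate 1 and 34 of replicate 2. The dashed lines mark an even spread over the bins. In both replicates the bin of the weakest peaks is the fullest, with 12 peaks.

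The member peaks recurred about as often as those of other genes. Of the 34 member peaks in replicate 2, 33 overlapped a peak of replicate 1 (97.1%, interval 85.1% to 99.5%, beside 95.9% for all protein-coding genes), and of the 59 in replicate 1, 33 overlapped one of replicate 2 (55.9%, interval 43.3% to 67.8%, beside 60.6%). Over the 33 pairs the median log2 ratio of replicate 1 to replicate 2 was 0.35 (SD 0.42, range −0.51 to 1.97), beside 0.44 over 10853 pairs of all genes. Fold enrichment was higher in replicate 1 in 29 of 33 pairs, while EEF2K, EIF2AK3, EIF2AK4 and the strongest EIF3A pair went the other way. The summits of a pair lay a median of 22.0 bp apart, and 26 of 33 lay within 50 bp. Log2 fold enrichment of the pairs had a Pearson's r of 0.851 across these peaks, given as a description, since the peaks share 2 libraries and several share a gene.

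The place of the summits was read on the longest-CDS transcripts, which held 52 of the 59 summits in replicate 1 and 31 of the 34 in replicate 2. A window of 200 nt to either side of the stop codon held 17 of the 52 (32.7%, interval 21.5% to 46.2%) and 10 of the 31 (32.3%, interval 18.6% to 49.9%), while it covered 14.5% and 13.2% of the length of the same transcripts. For all protein-coding genes, 24.5% and 27.1% of summits lay there. The remaining 3′ UTR held 5 of 52 (9.62%) and 6 of 31 (19.4%), below its length share of 32.1% and 27.6%. All protein-coding genes lay below theirs as well, with 18% and 19.7% of summits on 36.0% and 37.2% of the length, and in replicate 2 the members were level with them. The CDS outside the window held 22 of 52 (42.3%) and 14 of 31 (45.2%), beside 48.6% and 54.9% of the length and 48.6% and 47.5% of the summits of all genes. Elongation factors and their enzymes had 8 of 12 and 4 of 8 summits in the stop codon window, on 16.4% and 19.6% of the length. Initiation factors had 9 of 34 and 6 of 20, on 14.9% and 11.3% of the length.

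The replicates also differed in the 5′ UTR, on few summits. In replicate 1 it held 8 of 52 summits (15.4%, interval 8.01% to 27.5%), beside 4.78% of the length and 8.88% of the summits of all genes. In replicate 2 it held 1 of 31 (3.23%, interval 0.572% to 16.2%), beside 5.72% for all genes. The intervals overlap, each holds the share of all genes, and that share was lower in replicate 2 as well. Those 8 summits lay in 8 genes, EIF1AD, EIF4A3, EIF5, EIF1AX, EIF2S2, EIF2AK3, EIF5B and EIF1B, between 94 and 149 nt from the annotated start of the transcript. EIF4A3 alone of the 8 overlapped a peak of replicate 2, that is 12.5%, where 41.0% of the 5′ UTR summits of all genes were shared. In all genes, too, the summits of replicate 1 were shared least often in this region. In the stop codon window, 12 of the 17 member summits of replicate 1 were shared.

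**Figure D4:**
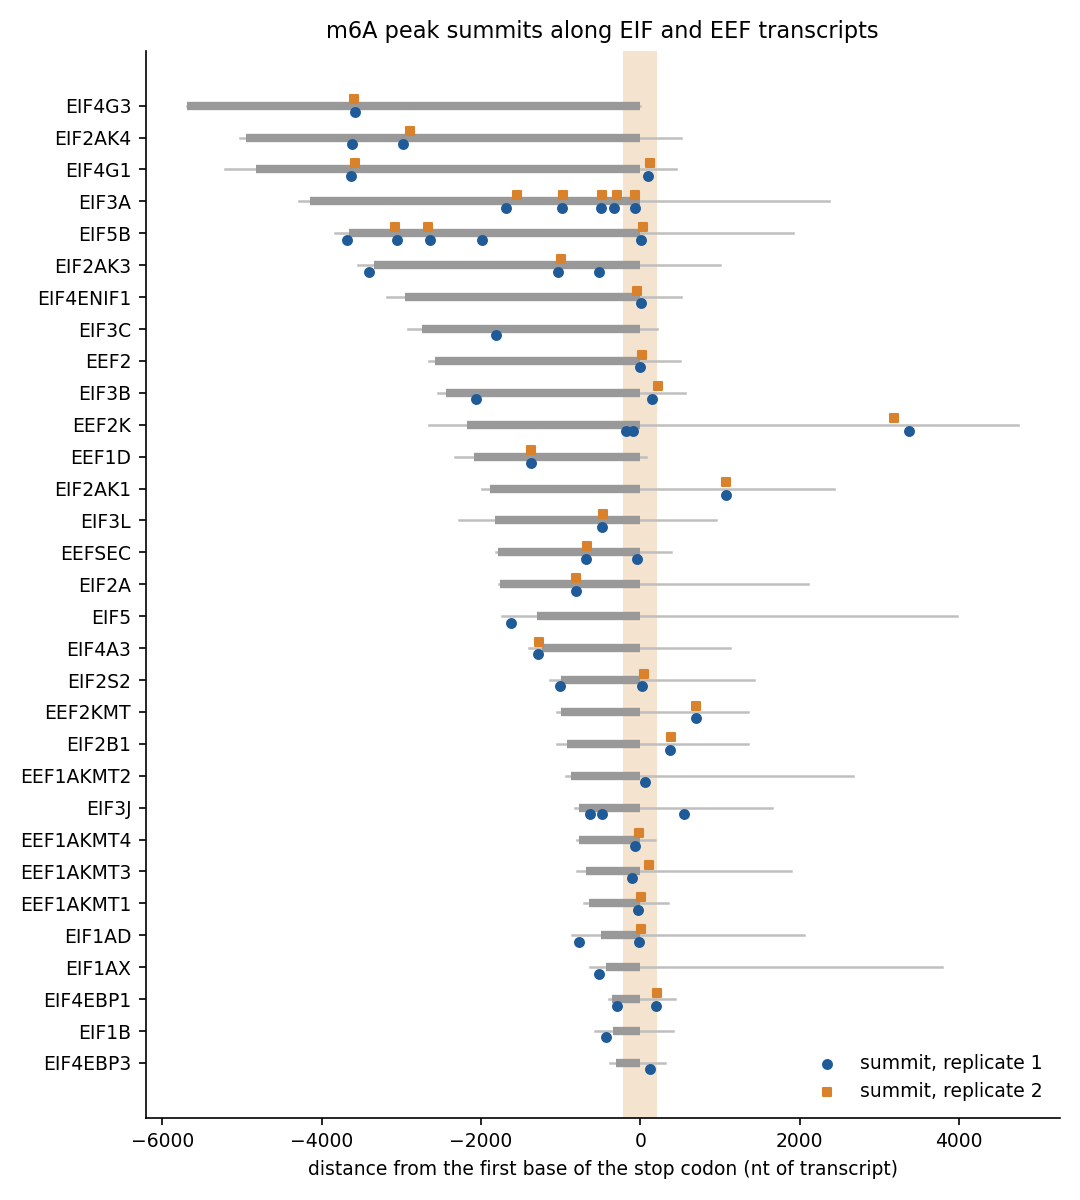
Each line is the longest-CDS transcript of a member with a summit on it, thick over the CDS and thin over the UTRs, placed by its distance (nt of transcript) to the start of the stop codon. Circles below the line are summits of replicate 1, squares above it those of replicate 2, and the shaded band is the stop codon window of 200 nt to either side. Summits gather in the band for the EEF1AKMT genes, and lie away from it within the CDS for EIF4G3 and EIF2AK4, while EIF3A and EIF5B have summits in both places.

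The long internal exons of the members nearly all held a summit, a comparison that was made, with its limit of 400 nt, after the positions of the peaks were known. They did not hold all coding summits outside the stop codon window. In replicate 1, 10 of the 22 lay in internal exons of 400 nt or more, 9 in internal exons of 92 to 290 nt (in EIF3A, EIF3C, EIF3J, EIF2AK3 and EIF5B) and 3 in first exons (EEF1D, EIF3B and EIF4EBP1). In replicate 2, 9 of the 14 lay in long internal exons, 4 in internal exons of 185 to 218 nt and 1 in a first exon. Of the 10 internal exons of 400 nt or more in the members (readthrough loci left out), 9 had a summit in both replicates and the tenth had one in replicate 1, where 44.7% of the 4898 such exons of all protein-coding genes had a summit in both. They lay in EEFSEC, EIF2A, EIF2AK3, EIF2AK4 (exons 9 and 12), EIF3A, EIF3L, EIF4G1, EIF4G3 and EIF5B, and ran from 431 to 840 nt. Of 578 internal exons under 200 nt, 1 had a summit in both (0.173%), beside 0.190% in all protein-coding genes. Per kilobase, 1.37 of the long and 0.0148 of the short exons had one. Of the 66 member exons from 200 nt up to the limit, 2 had a summit in both (3.03%), beside 2.31% in all protein-coding genes. Just under the limit, the 9 exons from 302 to 364 nt had 0 summits. With shares this low, a count of 0 in 9 exons does not show a step at 400 nt. All 10 long exons lay in members with a peak in both replicates, but the summits in these exons themselves put their genes in that set. Among all protein-coding genes with a peak in both, 75.7% of the 2894 long internal exons had a summit in both. That share is raised in the same way, so it is given as a description.

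**Figure D5:**
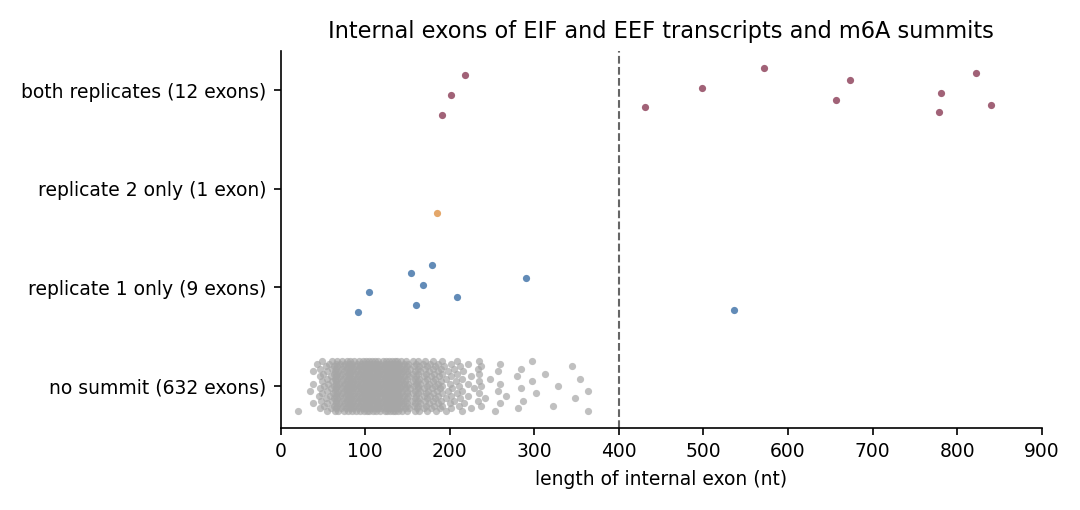
Each point is an internal exon of a member, placed by its length in nt (horizontal axis) and by the lists with a summit in it (rows, with the vertical spread within a row for visibility alone). The dashed line marks 400 nt. To its right lie 10 exons, 9 in the row of both replicates and 1 in the row of replicate 1, and 0 in the row without a summit.

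Members with and without peaks also differed in build. The 25 members with a peak in both replicates had a median transcript of 3096 nt and a median longest exon of 1138 nt, whereas the 39 members without a peak had 2041 nt and 730 nt. An exon of 400 nt or more was present in 24 of 25 (96.0%) and in 24 of 39 (61.5%). Among all protein-coding genes it was present in 96.4% of those with a peak in both and 80.7% of those without. The same order held in all protein-coding genes, with median longest exons of 1992 nt and 1018 nt. GGAC occurred 4.78 times per kilobase of transcript in the members with a peak in both and 3.47 times in those without. This density was not computed for all protein-coding genes.

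GGAC, searched on the gene's own strand up to 50 nt from the summit, was present at 35 of 59 member summits in replicate 1 (59.3%, interval 46.6% to 70.9%) and 22 of 34 in replicate 2 (64.7%, interval 47.9% to 78.5%). For all protein-coding summits, windows of the same 101 nt held it in 49.7% and 51.7%. GTCC, its reverse complement, read on the same strand, was present at 27.1% and 32.4% of the member summits. Over every exonic position of the members with a peak in both, a window of this length held GGAC in 29.7%, and in members without a peak in 24.3%. In replicate 1 the motif stood near 24 of 33 shared summits (72.7%) and 11 of 26 unshared ones (42.3%).

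Other genes of translation that are no EIF or EEF symbols were counted beside them. Of 32 such genes, 14 had a peak in both replicates (43.8%, beside 38.3% at their length) and 13 had none. The helicase and ATPase genes that assist initiation, DDX3X, DHX29 and ABCF1, had one in 3 of 3, beside 42.5% of genes of their length. The partners of eIF2 phosphorylation had one in 3 of 5 (36.6% at their length), GCN1, which activates EIF2AK4 (5.40 and 4.22), and the phosphatase subunits PPP1R15A (6.59 and 3.58) and PPP1R15B (9.87 and 6.99), which reverse the phosphorylation of eIF2. Termination and recycling factors had one in 3 of 8 (37.5%, close to the 39.4% at their length), the release factors ETF1 (4.71 and 3.08) and GSPT1 (16.5 and 7.88) and the rescue factor PELO (12.9 and 12.4). Mitochondrial factors had one in 3 of 6, MTIF3, TSFM and GFM1, beside 30.3% at their length. Regulators at the cap and the poly(A) tail had one in 2 of 10, LARP1 and GIGYF2, beside 41.8%.

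Many members have pseudogenes of similar sequence, so that reads may map to either copy. Of 155 pseudogenes named after a member, 4 had an exonic peak in replicate 1 and 1 in replicate 2. EEF1A1, with no peak of its own, has 49 of them, of which 2 had a peak in replicate 1 and 0 in replicate 2. The share for all pseudogenes was not computed, so whether these counts are low or high is unknown.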

How the data were processed

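The peak lists of 2 IP samples of OE-19 cells were used. The study's methods describe a pull-down from DNase-treated, fragmented total RNA, while the labels describe UV-fixed, lysed cells. The methods on RIP-seq and meRIP-seq name TopHat2, hg38 and MACS2 with default settings, whereas the submitters' processing notes name fastp, HISAT2 and MACS2. Releases, and whether the input served as control, are not given in the sources used here. The authors deposited, per peak and per sample, a fold enrichment (a ratio to the background of the caller), −log10 p and −log10 q values, a score that was not used, and the summit position. The lists end at q of 0.0491 and 0.0497. Strand is not recorded in them, so summits in overlapping genes are uncertain, and no read numbers, so their precision rests on the numbers of peaks. Of the member peaks, 64.4% in replicate 1 and 58.8% in replicate 2 share fold enrichment, p and q with another peak of their list. Of all peaks, 80.0% and 77.5% do, so ties limit the ranking of members and other peaks alike.

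Summits were placed in exons of GENCODE version 44 (1-based coordinates, hg38), and the region and internal exon of each were read on the transcript with the longest CDS. Peaks that overlapped by at least 1 bp were called shared, and pairs were each other's largest overlap. A summit that also lay in an exon of another gene was kept and named as uncertain. Every member was counted, each member with a peak was given with its strongest peak or its shared pair, and the other translation genes were named where both replicates had a peak. Members, lists and comparisons were chosen with earlier results of these data known. No test was run, since the design held 1 group with values. Intervals are 95% Wilson intervals. Alternatives were stricter q, a fold enrichment of 5 or more, equal list lengths, other overlaps, windows, peak positions and gene assignments, and each replicate left out. The placing of summits was checked on simulated data. Python 3.11.15, numpy 2.4.6, scipy 1.17.1 and matplotlib 3.10.9 were used.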

Additional observations from a re-analysis of the deposited data

Results flagged for a closer look

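Peaks with a summit in the body of a member gene but in no annotated exon entered no comparison above, and there were 5 of them in replicate 1 and 5 in replicate 2. EIF5B held the one that both lists shared, at a fold enrichment of 8.91 and 8.12. The others were seen once. In replicate 1 they lay in EEF1D (3.38 and 3.36), EIF4E (4.61) and EIF4ENIF1 (6.31). In replicate 2 they lay in EIF3E (5.15, 5.15 and 8.24) and EIF2AK3 (4.23). EIF3E and EIF4E had no exonic peak. There was no control list to set these peaks against.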

How the results depend on the processing

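Of 94 values recomputed under the alternatives, 80 stayed within the limits set for a change and 14 moved. With q of 1e-05 or less, 5 elongation factors or enzymes kept a peak in both replicates, and the median fold enrichment was 4.41 in replicate 1 and 3.97 in replicate 2. It was also 4.41 in replicate 1 with lists of equal length. A fold enrichment of 5 or more left 4 members with a peak in both, 1 of them an initiation factor and 2 elongation factors, with 25% of peaks shared in replicate 1 and 83.3% in replicate 2. A stop codon window of 100 nt held 21.2% of replicate 1 summits. GGAC lay within 25 nt of 39.0% and 38.2% of summits and within 100 nt of 76.3% and 79.4%. With q of 1e-05 or less, 12 of 52 initiation and 5 of 16 elongation genes had a peak in both. The order of the groups was the same, but they lay closer than in the main setting (14 of 52 and 8 of 16). The shares of all genes and of genes of the same length were not recomputed at this limit. With 1 replicate left out, the members with a peak numbered 25 to 33, initiation factors 14 to 21 and elongation factors 8 to 9. Restricting summits to the longest-CDS transcript and weighting by its length were chosen after seeing the data. The unknown depth limits every absence: a member without a peak may be unmethylated, little expressed or below detection, which cannot be told apart. No paired analysis was possible because the input samples had no peak list here and no result came from a test.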
